A study of Mus musculus with 7 samples.

Results

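The 9 globin genes described here are the adult alpha genes Hba-a1 and Hba-a2, the adult beta genes Hbb-bs and Hbb-bt, the embryonic beta-like group Hbb-bh1, Hbb-bh2 and Hbb-y, and the theta genes Hbq1a and Hbq1b. They were taken by gene symbol from a deposited table of 45777 mouse genes, and all 9 passed the filter on low values. The table came from RNA-seq of mouse PBMCs (peripheral blood mononuclear cells, a blood fraction of lymphocytes and monocytes from which red cells and granulocytes are meant to be removed) at week 8 of serial blood collection. There were 7 libraries, 1 per group: Non, the control, and facial vein (FV), retro-orbital plexus (RP) and tail vein (TV) collection, each without and with ibuprofen, a cyclooxygenase inhibitor. The sources used here do not state strain, sex, age, ibuprofen dose or whether animals were pooled. With 1 library per group, every difference between single libraries below is a description without a replicate check. Where 7 values follow each other, their order is Non, FV without and then with ibuprofen, RP likewise and TV likewise.

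Haemoglobin is a tetramer of alpha-like and beta-like chains, each holding a heme. Mouse embryos use Hba-x, Hbb-y and Hbb-bh1 in the first red cells, and the adult alpha and beta genes take over in fetal liver and bone marrow. Reticulocytes, the young red cells of blood, have lost the nucleus but still carry globin mRNA, whereas mature red cells carry little. Theta genes are alpha-like genes of the alpha cluster whose function is not settled.

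On GRCm38.p6, the assembly also called mm10, the alpha and theta genes alternate on the plus strand of chromosome 11 within 17202 bases. Their order is Hba-a1 (chr11:32283672-32284486), Hbq1b (chr11:32286964-32287912), Hba-a2 (chr11:32296492-32297310) and Hbq1a (chr11:32300069-32300873). The beta cluster lies on the minus strand of chromosome 7 over 40684 bases, with Hbb-bt (chr7:103812524-103813923), Hbb-bs (chr7:103826523-103827928), Hbb-bh2 (chr7:103838801-103840734), Hbb-bh1 (chr7:103841638-103843162) and Hbb-y (chr7:103851754-103853207). Each gene has at most 3 exons in its annotated transcripts.

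Copies of a pair share much of their sequence, which bears on how far their read counts can be told apart. The coding sequences of Hba-a1 and Hba-a2 differed at 1 base, and 389 of the 75-base windows of their transcripts were shared, which is 62.2% of those of Hba-a1 and 81.0% of those of Hba-a2. Hbb-bs and Hbb-bt also differed at 1 coding base and shared 356 windows, 64.3% and 56.6% of each. Hbq1a and Hbq1b were 93.8% identical and shared 154 windows, 29.1% and 31.6% of each. Hbb-bh1, Hbb-bh2 and Hbb-y shared none with one another or with the adult genes. Values of single adult and theta copies are therefore uncertain, and the sums of each group are the main measure.

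Promoters are shown because members of a pair moved together in some groups and apart in others. The windows run from 250 bases before to 50 bases after the RefSeq start, 5′ to 3′ on the gene's own strand, from RefSeq on GRCm38.p6. Capitals mark 4 short motifs on either strand: CACCC as in the CACCC box, the CCAAT box, the GATA motif searched as GATAA, and the TATA box searched as TATAA. A match describes letters and is not a binding site. The table held 8 of the 9 members. Hba-a1 (chr11:32283422-32283721, plus strand) stands for both alpha genes, since its window and that of Hba-a2 were identical over all 297 bases they shared at an offset of 3. The beta pair is Hbb-bs (chr7:103827879-103828178, minus strand) and Hbb-bt (chr7:103813874-103814173, minus strand).

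Hba-a1: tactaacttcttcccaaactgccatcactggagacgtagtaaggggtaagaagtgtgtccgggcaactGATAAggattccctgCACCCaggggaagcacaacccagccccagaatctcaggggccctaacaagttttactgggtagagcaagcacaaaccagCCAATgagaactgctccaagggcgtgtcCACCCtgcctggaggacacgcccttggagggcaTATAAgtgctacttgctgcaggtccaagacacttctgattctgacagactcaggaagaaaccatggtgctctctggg
Hbb-bs: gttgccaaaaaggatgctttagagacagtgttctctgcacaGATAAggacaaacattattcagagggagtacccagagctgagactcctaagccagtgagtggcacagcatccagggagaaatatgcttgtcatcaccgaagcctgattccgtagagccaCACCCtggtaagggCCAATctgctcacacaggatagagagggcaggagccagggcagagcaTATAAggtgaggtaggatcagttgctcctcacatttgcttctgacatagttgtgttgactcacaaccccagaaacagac
Hbb-bt: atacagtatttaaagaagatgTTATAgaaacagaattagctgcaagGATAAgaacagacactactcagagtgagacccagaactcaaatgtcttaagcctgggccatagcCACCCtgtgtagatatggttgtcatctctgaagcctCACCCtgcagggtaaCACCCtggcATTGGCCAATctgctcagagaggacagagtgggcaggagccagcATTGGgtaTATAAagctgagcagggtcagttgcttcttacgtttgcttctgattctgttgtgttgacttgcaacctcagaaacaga

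All 4 motifs were present in each of the 4 adult promoters. Among 32851 mouse promoter windows of the same length, 57.5% held CACCC, 37.4% CCAAT, 25.4% GATAA and 24.9% TATAA, and 1.51% held all 4. The windows of Hbb-bs and Hbb-bt were 70.6% identical.

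The embryonic gene Hbb-y (chr7:103853158-103853457, minus strand) and the theta genes Hbq1a (chr11:32299819-32300118, plus strand) and Hbq1b (chr11:32286714-32287013, plus strand) held fewer of the 4 motifs.

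Hbb-y: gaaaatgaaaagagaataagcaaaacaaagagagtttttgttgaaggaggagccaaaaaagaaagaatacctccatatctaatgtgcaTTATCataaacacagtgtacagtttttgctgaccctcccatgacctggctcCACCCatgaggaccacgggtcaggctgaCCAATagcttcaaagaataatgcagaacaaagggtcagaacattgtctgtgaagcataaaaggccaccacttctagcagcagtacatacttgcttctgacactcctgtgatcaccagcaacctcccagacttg
Hbq1a: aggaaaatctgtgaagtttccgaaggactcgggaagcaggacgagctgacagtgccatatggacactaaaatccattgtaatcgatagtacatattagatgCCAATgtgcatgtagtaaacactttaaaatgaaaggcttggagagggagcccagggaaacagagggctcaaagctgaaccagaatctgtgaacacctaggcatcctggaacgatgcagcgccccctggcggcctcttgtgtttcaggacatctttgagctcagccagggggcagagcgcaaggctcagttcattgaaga
Hbq1b: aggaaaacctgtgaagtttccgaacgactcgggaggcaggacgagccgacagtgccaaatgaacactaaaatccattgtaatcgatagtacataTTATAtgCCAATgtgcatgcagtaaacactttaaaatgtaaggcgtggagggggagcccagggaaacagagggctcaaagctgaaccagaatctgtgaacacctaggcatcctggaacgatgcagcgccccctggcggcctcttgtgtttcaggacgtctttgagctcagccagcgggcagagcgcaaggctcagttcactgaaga

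Hbb-y held 3 motifs, Hbq1b held 2 and Hbq1a held 1. The theta windows were 95.3% identical, with 14 mismatches, and the TATAA match of Hbq1b, read on the opposite strand, is absent from that window of Hbq1a. Hbb-bh2, whose window is not printed, held 1 motif.

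Library totals ran from 47903611 to 63801032 counts. The adult genes took from 46.3% of counts in FV with ibuprofen to 70.9% in TV without ibuprofen, with 95% Wilson intervals at most 0.0283 percentage points wide. Such intervals and the floors below cover counting error only. Because these genes take so much of a library, the level unit here is CPM, a count set against its library's total, after TMM scaling (edgeR's trimmed mean of M-values), with factors of 0.553 for TV without ibuprofen, the smallest, up to 1.31 for the FV library given ibuprofen. On that scale, which is relative to an adjusted total, the levels within a library need not add up to the nominal total. Markers of all 6 other cell types searched (platelets, neutrophils, monocytes, B, T and NK cells) were detected in every library, beside this large share of red cell mRNA. In such bulk samples, fewer cells of a type and less RNA per cell cannot be told apart.

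**Figure D1:**
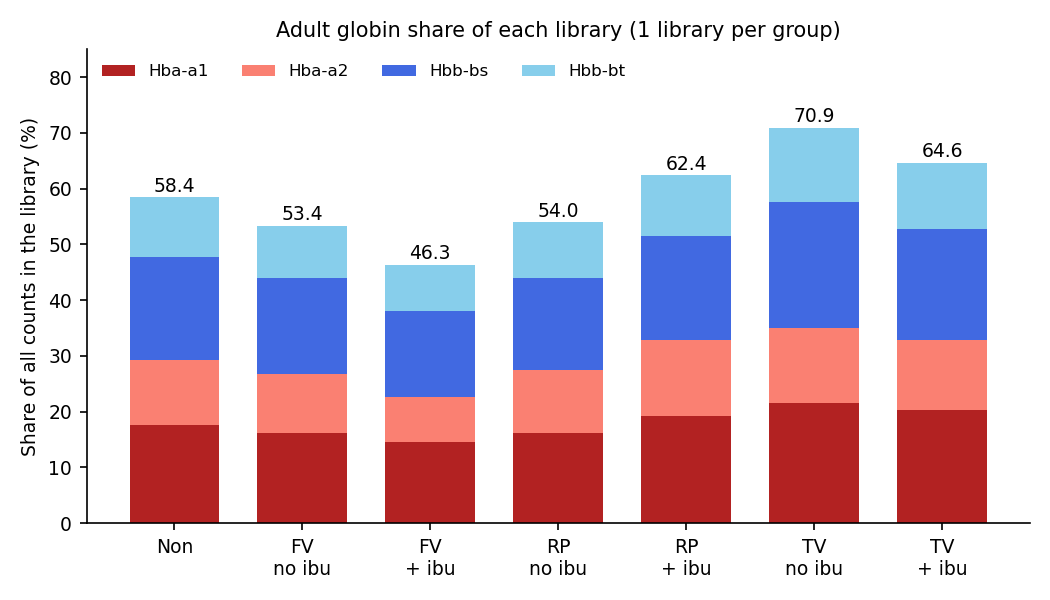
Share of all counts in each library (%, y axis) taken by the 4 adult globin genes, stacked, with the total printed above each bar. The total ran from 46.3% in FV with ibuprofen to 70.9% in TV without ibuprofen.

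Per length, the adult genes stood far above the rest. Median FPKM over the 7 libraries was 283687 for Hba-a1, 261603 for Hbb-bs, 187965 for Hba-a2 and 154588 for Hbb-bt. Ranges overlapped between Hba-a1 (236323 to 353063) and Hbb-bs (217987 to 322049), and between Hba-a2 (132018 to 217909) and Hbb-bt (120227 to 194374). The other 5 genes had medians of 191 (Hbq1b), 155 (Hbq1a), 146 (Hbb-bh2), 142 (Hbb-y) and 141 (Hbb-bh1) FPKM, and their ranges all overlapped. Their order is therefore not separated by the spread between libraries. Hba-x, the embryonic alpha-like gene, had 0 to 15 counts per library, with 0 in Non, where the floor of 3 counts is 0.0536 CPM. Mb, which encodes muscle myoglobin, had 0 counts in every library.

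Alpha and beta chains stayed in step. The alpha sum was 261291, 228926, 170238, 222382, 331319, 640299 and 383219 CPM. The beta sum was 261439, 226827, 177335, 216053, 298181, 656704 and 368554 CPM. TV without ibuprofen was the highest library for both and FV with ibuprofen the lowest. The ratio of alpha to beta counts lay between 0.960 in FV with ibuprofen and 1.11 in RP with ibuprofen. Within the pairs, Hba-a1 made up 58.5% to 64.0% of alpha counts and Hbb-bs 62.7% to 64.8% of beta counts.

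**Figure D2:**
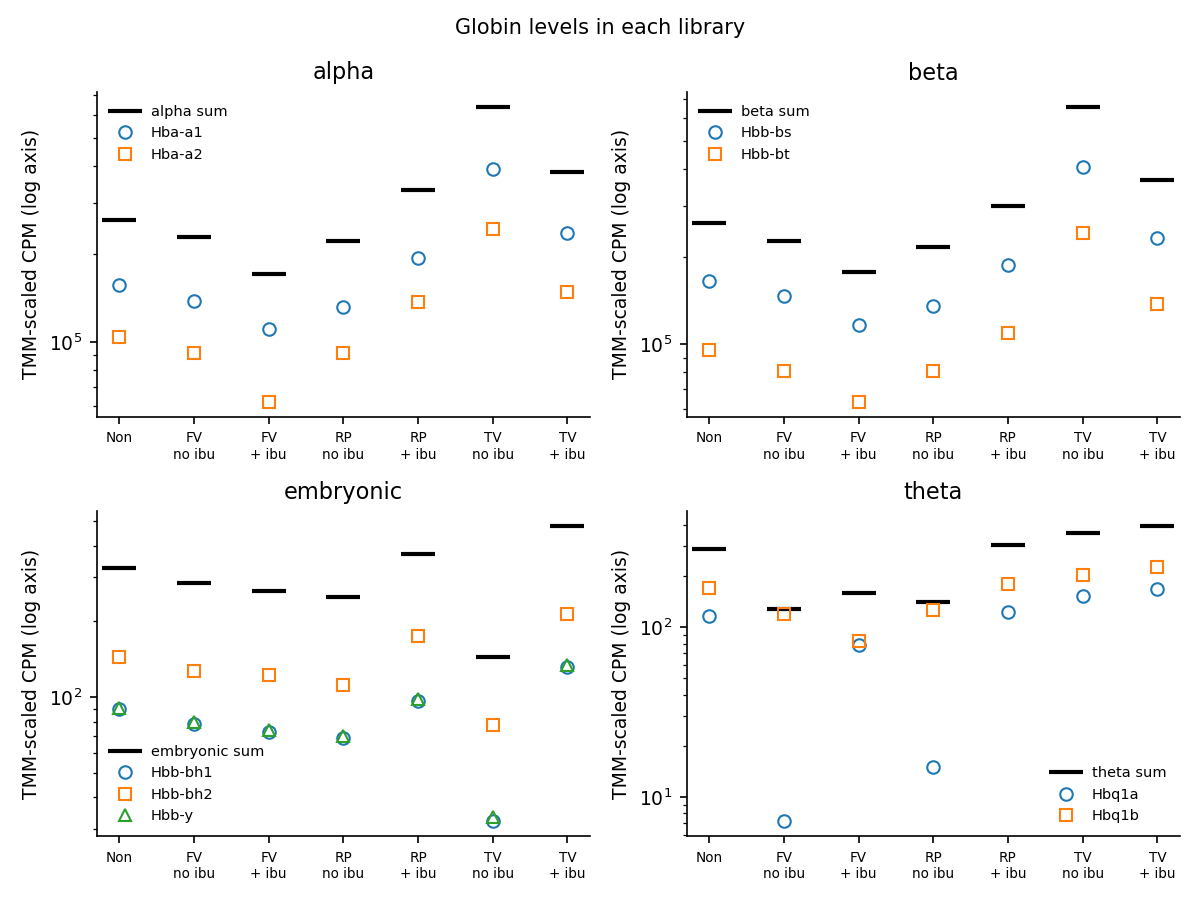
TMM-scaled CPM (log y axis) of each globin in the 7 libraries, by group: black bars give the group sum and open symbols the single genes. Alpha and beta were highest in TV without ibuprofen, where the embryonic group was lowest, and Hbq1a was far below Hbq1b in FV and RP without ibuprofen.

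The 3 embryonic-group genes went the other way in TV without ibuprofen. Hbb-y had 5085, 4476, 4824, 5493, 5008, 1091 and 6085 counts. Hbb-bh1 had 5002, 4387, 4728, 5390, 4920, 1050 and 5982, and Hbb-bh2 8119, 7139, 7986, 8756, 8941, 2548 and 9733. All 3 genes were lowest in TV without ibuprofen, outside the range of the other 6 libraries. Summed, embryonic counts per beta count were 0.000220 there and 0.00116 to 0.00149 elsewhere. That ratio needs no scaling between libraries.

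Hbb-bh1 and Hbb-y also had almost the same per-length level, a likeness chosen after the values were seen. Hbb-y was 0.179% to 0.561% above Hbb-bh1 in FPKM in 6 libraries and 2.38% above it in TV without ibuprofen, at 27.2 against 26.6 FPKM. Among 303 pairs of neighbouring genes with a mean of at least 10 FPKM, this was the 1 pair (0.330%) within 2% in at least 6 libraries. The likeness was seen before this count was made, so the passing of this pair is not separate support. Their coding sequences were 76.4% identical, and their transcripts shared 0 of 539 windows of 75 bases. Hbb-bh2 lay within 1% of Hbb-bh1 in 4 libraries and 48.0% above it in TV without ibuprofen. How the counting program assigned reads among these genes was not tested, so their single values may not be independent of each other.

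**Figure D3:**
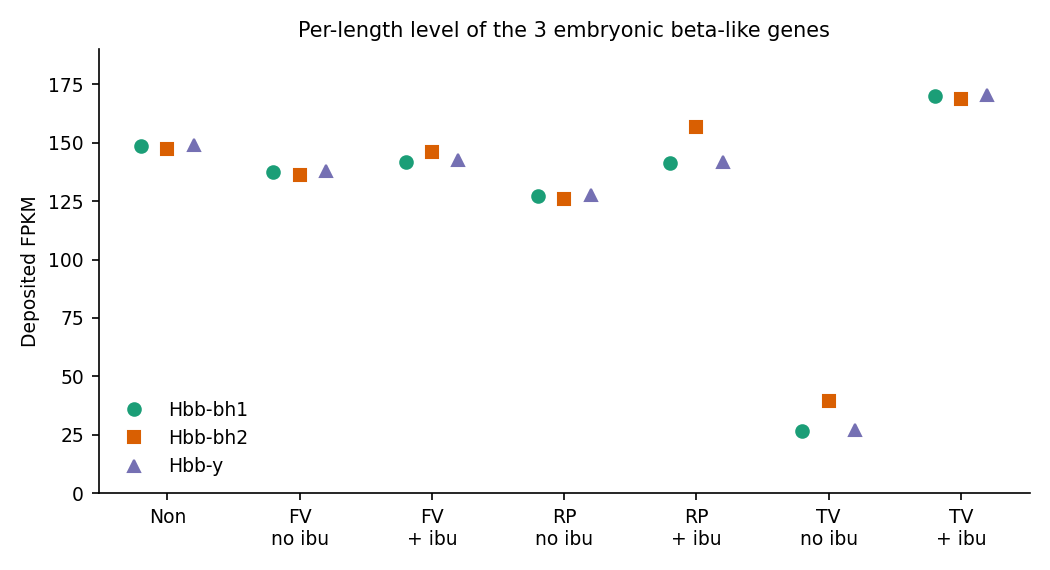
Deposited FPKM (y axis) of Hbb-bh1, Hbb-bh2 and Hbb-y in each library. Hbb-bh1 and Hbb-y lie at almost the same height in all 7 libraries, between 127 and 170 FPKM except in TV without ibuprofen, where they were 26.6 and 27.2.

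The theta pair split between its copies. Hbq1a had 6501, 402, 5114, 1179, 6265, 4975 and 7637 counts. Hbq1b had 9504, 6730, 5399, 9927, 9135, 6672 and 10270. Hbq1a was low in 2 libraries, FV and RP without ibuprofen, while Hbq1b varied 2.73-fold over all 7 on the CPM scale. The share of Hbq1a in theta counts was 5.64% (95% Wilson interval 5.12% to 6.20%) in FV without ibuprofen and 10.6% in RP without ibuprofen. It was 40.6% to 48.6% in the other 5 libraries.

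**Figure D4:**
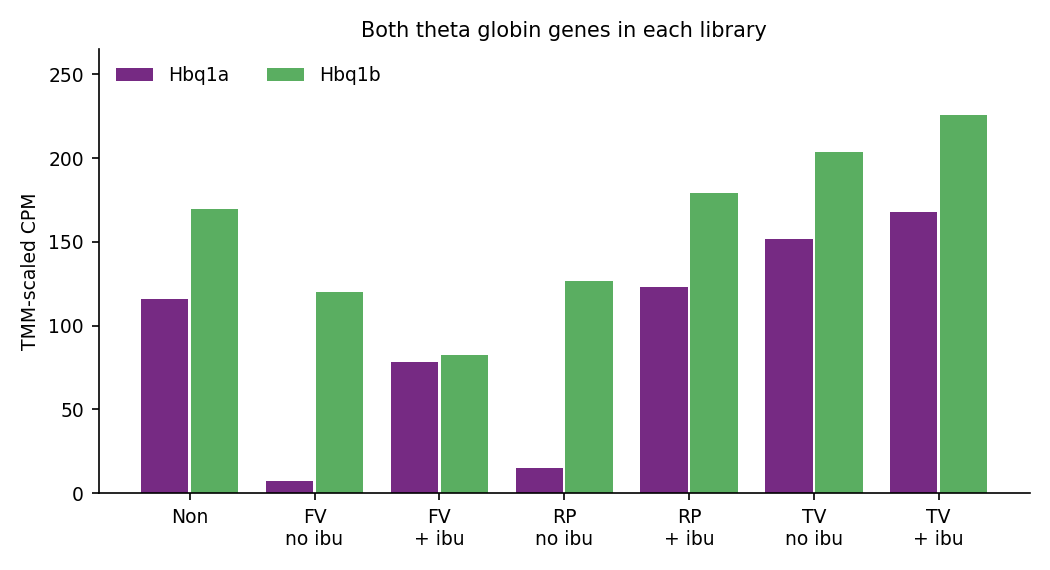
TMM-scaled CPM (y axis) of Hbq1a and Hbq1b in each library. Hbq1a was 7.18 and 15.04 in FV and RP without ibuprofen and 78.2 to 168 in the other libraries, while Hbq1b lay between 82.6 and 226 throughout.

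Blood collection without ibuprofen was compared with Non first in pairs of libraries. In TV without ibuprofen, 4 of 9 members were at least 2-fold higher than in Non, against 9.54% of the 6089 genes compared, and 2 of 9, Hbb-bh1 and Hbb-y, were at least 2-fold lower, against 1.3%. In FV without ibuprofen 1 of 9, Hbq1a, was at least 2-fold lower, against 1.67% of genes. In RP without ibuprofen Hbq1a was again the 1 member at least 2-fold lower, against 0.198%. With ibuprofen, 1 of 9 (Hbq1b) was at least 2-fold below Non in FV, against 0.356%, and 0 of 9 were 2-fold apart from Non in RP or TV, against 0.331% and 0.529%. Without ibuprofen, the theta sum differed from Non by a log2 of -1.17 in FV and -1.02 in RP. In the libraries given ibuprofen it differed by -0.85 in FV and 0.08 in RP.

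The direction of theta in TV without ibuprofen depended on the scale. Its log2 difference from Non was 0.33 with TMM scaling and -0.71 by library size alone. Library size alone also shifted the median of all genes in that pair by -1.02. The adult sums stayed above Non on either scale (alpha 1.29 with TMM and 0.26 by library size), and the embryonic sum stayed below (-1.17 and -2.20).

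Averaged over the 3 routes in a fit of all 7 libraries, none of the 9 members was called. edgeR's quasi-likelihood test gave log2 differences from Non of 0.32 (SE 3.70, adjusted p = 0.984) for alpha, 0.31 (SE 3.67, adjusted p = 0.984) for beta, -0.53 (SE 0.466, adjusted p = 0.728) for embryonic and -0.61 (SE 0.304, adjusted p = 0.623) for theta. Of 11804 genes, 1 was called (0.00847%), with 915 at an unadjusted p under 0.05. limma-voom called 1 and DESeq2 19. Hbq1a had a log2 difference of -2.05 (SE 0.776, edgeR adjusted p = 0.625). Without the FV library with ibuprofen it was -2.08 and passed (edgeR adjusted p = 0.0384), and by library size alone it was -2.36 and passed (edgeR adjusted p = 0.000974). Non is a single library in this fit, so its spread is borrowed from the others, and p-values here measure spread between libraries that may be technical.

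Ibuprofen was compared within each route. With against without ibuprofen, the alpha sum differed by a log2 of -0.43 for FV, 0.58 for RP and -0.74 for TV, and the beta sum by -0.36, 0.46 and -0.83. Neither adult sum had 1 direction over the routes. The theta sum was higher with ibuprofen in all 3 routes, by 0.32, 1.10 and 0.13. Its copies differed in FV: Hbq1a had 3.44, 3.03 and 0.14 over the routes, and Hbq1b had -0.54, 0.50 and 0.15. The embryonic sum differed by -0.11, 0.57 and 1.73, and by library size alone its FV value was 0.08.

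At the 2-fold mark, 1 of 9 members (Hbq1a) was higher with ibuprofen in FV, against 0.513% of genes, and again 1 of 9 (Hbq1a) in RP, against 0.347%. In TV, 3 of 9 were higher, Hbb-bh1, Hbb-bh2 and Hbb-y, against 1.17%. These pairs and those against Non share the libraries without ibuprofen, so the low values of Hbq1a in FV and RP and of the embryonic group in TV enter both.

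**Figure D5:**
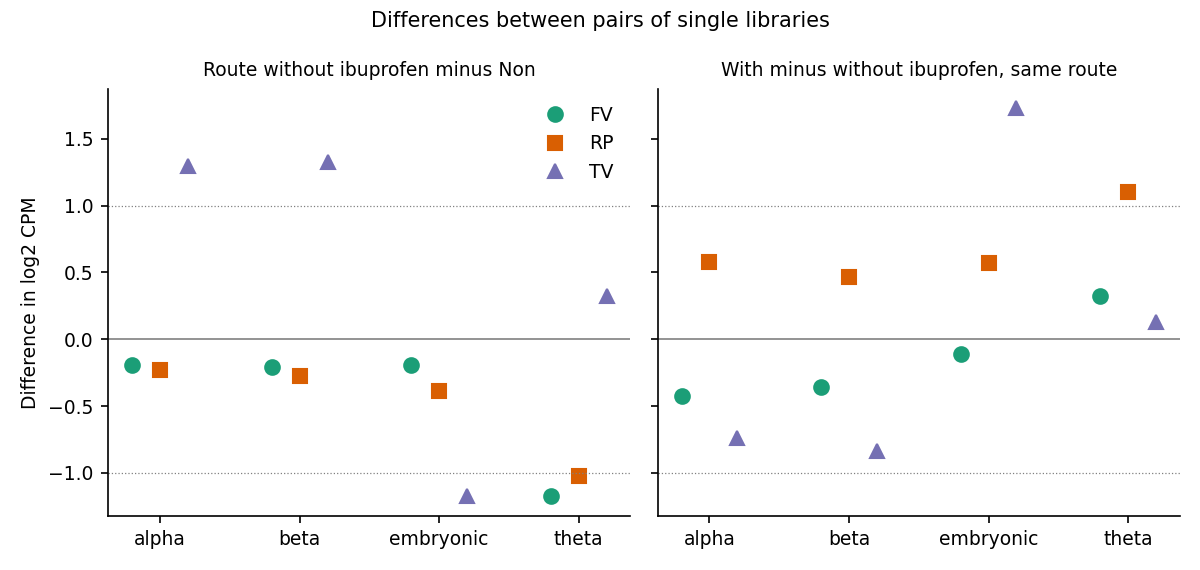
Differences in log2 CPM (y axis) of the 4 globin sums, for each route without ibuprofen against Non (left) and with against without ibuprofen within the route (right). Each point is 1 pair of single libraries, dotted lines mark 2-fold, and alpha and beta had opposite signs between routes in both panels.

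Over the 6 collected libraries, none of the 9 members was called for ibuprofen by edgeR, against 0% of 11774 genes, with 1243 genes at an unadjusted p under 0.05. limma-voom called 2 genes and DESeq2 114. The fitted log2 differences were -0.19 (SE 2.44, edgeR adjusted p = 0.982) for alpha, -0.24 (SE 2.42, adjusted p = 0.979) for beta, 0.73 (SE 0.350, adjusted p = 0.508) for embryonic and 0.52 (SE 0.222, adjusted p = 0.482) for theta. Hbq1a reached 2.28 (SE 0.677, edgeR adjusted p = 0.379). By library size alone it passed (log2 2.40, edgeR adjusted p = 8.31e-06).

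FV libraries bore on these calls. Without FV without ibuprofen, edgeR called 231 of 11694 genes. Of the 9 members these included Hbb-bh1 (log2 1.26, adjusted p = 0.0408), Hbb-y (1.25, 0.0418) and Hbb-bh2 (1.06, 0.0487). In RP and TV, the routes left with both arms, the log2 differences were 0.49 and 2.04 for Hbb-bh1. They were 0.49 and 2.00 for Hbb-y, and 0.65 and 1.46 for Hbb-bh2. These genes were all lowest in TV without ibuprofen, and their values may not be independent. Leaving out FV with ibuprofen instead is nearly the same comparison, since the remaining FV library is then taken up by its own route term, and it gave 228 calls. For the adult sums, the SEs worked back from edgeR's F statistic exceed the standard errors that the other tools estimate. For the alpha sum it was 2.44, against 0.475 by limma-voom and 0.273 by DESeq2, and an SD of 0.687 between the 3 routes.

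Ratios within a library avoid scaling. The log2 ratio of theta to alpha counts was higher with ibuprofen in 3 of 3 routes, by 0.75, 0.53 and 0.87 (mean 0.72 ± 0.17, SD, n = 3 routes). The exact 2-sided sign-flip permutation test gave p = 0.25, the smallest p that 3 routes allow, and 0.5 after Benjamini-Hochberg adjustment over 6 ratios. Embryonic to beta was also higher in 3 of 3 routes, by 0.25, 0.11 and 2.56, with the same exact p of 0.25. The log2 odds of Hbq1a within theta differed by 3.99, 2.53 and -0.0039 (exact permutation p = 0.5). The rises of theta to alpha had unlike parts. In FV and RP, Hbq1b differed by -0.54 and 0.50, below alpha at -0.43 and 0.58, while Hbq1a differed by 3.44 and 3.03. In TV, theta differed by 0.13 and alpha by -0.74.

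With TMM scaling, theta had the largest route statistic of the 4 sums. Its 2 libraries per route had 127 and 159 CPM for FV, 141 and 303 for RP, and 360 and 394 for TV, so on this scale TV did not overlap the other routes while FV and RP did. As shares of all counts, theta took 0.0149% and 0.0211% for FV, 0.0174% and 0.0301% for RP, and 0.0197% and 0.0338% for TV, and all 3 routes overlapped. By library size alone the edgeR statistic was 0.957 for theta (adjusted p = 0.422), 25.8 for alpha (2.87e-09) and 22.9 for beta (3.73e-08). edgeR's F test gave 13.8 (adjusted p = 0.165), against 0.106 for alpha (adjusted p = 0.941), 0.109 for beta (0.939) and 0.0519 for embryonic (0.971). No gene of 11774 (0%) was called by edgeR, with 2298 at an unadjusted p under 0.05, while limma-voom called 9 and DESeq2 1007. DESeq2 called the alpha (adjusted p = 0.00486), beta (0.00326) and theta sums (0.000315). Without FV without ibuprofen, theta also passed in edgeR (adjusted p = 0.0399).

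With TMM scaling, lists of red cell genes for heme and iron, late reticulocytes and the membrane shared their extreme libraries with the adult sums. As shares of all counts, each of these list sums was instead lowest in FV without ibuprofen. On that scale only the heme and iron sum stayed highest in TV without ibuprofen. The heme and iron list, 23 genes, ran from 14987 CPM, for FV given ibuprofen, to 47870, for TV without it, the same lowest and highest libraries as alpha and beta. Alas2, the first enzyme of heme synthesis in red cells, was at 9354, 7734, 6555, 9137, 11112, 24649 and 15832 CPM. Fech, which inserts iron into the heme ring, ran from 1591 to 5657 CPM with the same extremes. Ftl1 and Fth1, also among the 4 most abundant genes of the list, departed from this. Ftl1 was lowest in RP without ibuprofen (2957 CPM). Fth1 was at 1446 CPM in Non and at 1913 and 2311 in FV without and with ibuprofen. In TV without ibuprofen, 6 of 16 genes of this list within the level limit were at least 2-fold above Non, against 9.54% of all genes compared, with a median log2 difference of 0.77, against 0.0010 over all genes.

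Late reticulocyte genes summed to 8785 to 27360 CPM and red cell membrane genes to 2397 to 6872. With TMM scaling both were again lowest in FV with ibuprofen and highest in TV without ibuprofen. Slc4a1, the band 3 anion exchanger, was at 440.1, 211, 236, 263, 401, 693 and 459 CPM. Bpgm, the enzyme that makes 2,3-bisphosphoglycerate, ran from 2086 to 6654 CPM. For late reticulocyte genes, 14 of 20 were at least 2-fold above Non in TV without ibuprofen (median 1.09), against the same 9.54% of all genes. In that pair 19 of 19 platelet genes also passed the 2-fold mark (median 2.02). Erythroblast genes were low, at 112 to 222 CPM in sum. The chaperone and transcription list had 21 measured genes of 22, and no globin chaperone was among those measured. Its sum was led by the broadly expressed Klf13, Chd4 and Klf3. With TMM scaling this list was lowest in Non (945 CPM) and highest in TV without ibuprofen (1133), with 1016 in FV with ibuprofen. Of its genes within the level limit, 3 of 17 were at least 2-fold above Non in TV without ibuprofen. Chosen after their values were seen, the transcription factors Tal1, Gata1 and Nfe2 were at 11.7, 8.85 and 36.4 CPM in Non and 54.4, 27.6 and 101 in that library. They were also above Non in FV with ibuprofen, where adult globins were lowest, at 34.0, 18.2 and 78.4 CPM. The platelet marker sum was likewise above Non (2044 CPM) in TV without ibuprofen (8740) and in FV with ibuprofen (6927). From which cells the RNA of these transcription factors came was not tested. Of the 4 most abundant genes of the list, Klf13 was above Non in TV without ibuprofen (176 against 170 CPM). Chd4 (144 against 161), Klf3 (95.8 against 111) and Ldb1 (50.6 against 75.6) were below it.

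No list had a member called by edgeR for ibuprofen, collection or route. For ibuprofen the median log2 difference was -0.10 over the 23 heme and iron genes, -0.22 over 24 membrane genes and -0.05 over 25 late reticulocyte genes, beside 0.01 over all genes tested. For collection it was 0.07, 0.03 and 0.11, beside -0.0057. Genes that take up or break down released haemoglobin and heme had medians of -0.26 and 0.44. The 2 most abundant of them differed in pattern, with Slc48a1 below Non in both FV libraries and Lrp1 above it. Slc48a1, a heme transporter, was at 459, 297, 307, 385, 552, 1121 and 699 CPM, and Lrp1, a receptor for heme bound to hemopexin, at 163, 361, 250.1, 223, 111, 274 and 136.

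Markers of other cell types also moved between libraries. Platelet markers summed to 2044, 4666, 6927, 2591, 1654, 8740 and 3303 CPM, so 2 libraries with the extreme adult globin levels, TV without and FV with ibuprofen, were both high. T cell markers were lowest in TV without ibuprofen (606 CPM) and highest in RP with ibuprofen (1484). B cell markers ranged from 750 to 2182 CPM, neutrophil markers from 218 to 1444, monocyte markers from 2637 to 9035 and NK markers from 203 to 341. Mitochondrial rRNA took 0.964%, 2.55%, 1.99%, 1.27%, 0.976%, 2.72% and 1.51% of the counts outside the globins. The part of these cell types, of scaling or of library quality in the globin differences was not tested.

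Over the 7 libraries, 6132 genes were compared with each sum for likeness of pattern. Predicted genes (Gm, LOC and Rik names) were left out of the ranking below. Alpha was nearest to Ube2c (r = 0.997), a ubiquitin-conjugating enzyme, then Ubb, Cct7, Riok3 and Fbxo7. Beta was nearest to Ubb (r = 0.9975), a ubiquitin gene, then Ssbp3, Ube2o, Cmas and Cct7, so Ubb and Cct7 were near both. For the embryonic sum the nearest was Ubald1 (r = 0.9824), then Jak3, Sf3b2, Cdc16 and Fto, and for theta Plcl2 (r = 0.9657), then Tbcel, Spire1, Ifrd2 and Josd2. These coefficients describe 7 libraries that share their scaling, and no p is given. Between sums, r was 0.9939 for alpha and beta, 0.7951 for alpha and theta and -0.3029 for alpha and embryonic.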

How the data were processed

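Each of the 7 PBMC groups had 1 library. RNA came from an RNeasy column kit and libraries from a stranded mRNA kit, per the labels' protocols. The submitters' processing notes name Trimmomatic 0.38, HISAT2 2.1.0 and the build mm10, without roles. The sources used here do not name the counting program, the annotation release or the use of strand. Read counts per gene were deposited as raw whole numbers, per the file headers and their values. FPKM values deposited by the authors were used to compare levels between genes, and TPM values deposited by the authors only as an alternative scale.

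Counts were tested with edgeR 4.0.16 (quasi-likelihood, TMM, mean of at least 1 CPM, Benjamini-Hochberg over all genes, threshold 0.05) in R 4.3.3. Ibuprofen was fitted with route over 6 libraries, route as an F test over the same libraries, and collection without ibuprofen against Non over all 7. These fits have 2 residual degrees of freedom. Sums of near-identical genes replaced their rows. Pairs of libraries used log2 CPM with a prior count of 2, a mean of at least 10 CPM and a 2-fold mark, with no test. The fits were tested on simulated data.

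limma 3.58.1 (voom), DESeq2 1.42.0, other scalings, filters and leaving out each library were the alternatives. Named genes were all 9 members, the 4 most abundant genes of each list, and the 5 genes nearest each sum with predicted genes left out. Members and lists were chosen with earlier results of these data known. Gene IDs matched the GRCm38.p6 table for 45679 of 45777 genes. Transcripts were compared in windows of 75 bases.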

Additional observations from a re-analysis of the deposited data

Results flagged for a closer look

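Several globins differed from Non, or between ibuprofen and none, in opposite directions in different routes. Each value below is the range of the log2 difference over the 3 routes, 1 library per arm, and whether the routes differ was not tested for any of these single values.

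For ibuprofen within route the range was 1.29 for Hba-a1, 1.30 for Hba-a2, 1.28 for Hbb-bs and 1.26 for Hbb-bt, and 1.32 and 1.30 for the alpha and beta sums. RP was higher and FV and TV were lower with ibuprofen. It was 2.15 for Hbb-bh1, 1.52 for Hbb-bh2, 2.12 for Hbb-y and 1.83 for the embryonic sum, with FV lower and RP and TV higher. By library size alone, these genes and their sum (0.08) were higher with ibuprofen in FV too. The range for Hbq1b follows. For Hbq1b that range was 1.04.

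For collection without ibuprofen against Non it was 1.57 for Hba-a1, 1.41 for Hba-a2, 1.59 for Hbb-bs, 1.58 for Hbb-bt, 1.53 for the alpha sum and 1.60 for the beta sum, with TV above Non and FV and RP below. It was 4.40 for Hbq1a, 0.761 for Hbq1b and 1.4997 for the theta sum, again with TV above Non, although by library size alone the theta sum in TV was below it.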

How the results depend on the processing

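No paired analysis was possible because the labels carry no replicate numbers to pair by, and each group has 1 library. Route already pairs the libraries in the ibuprofen fit, and without the route term 0 genes were called. Genes called for ibuprofen numbered 0, and 20 by library size alone, 114 by DESeq2 and 2 by limma-voom. For collection the 1 call became 0 with DESeq2 size factors, with no filter, against all 6 collected libraries and with 4 libraries, 10 by library size and 19 by DESeq2. For route the 0 became 453 by library size, 1007 by DESeq2, 9 by limma-voom and 2 by the legacy edgeR test. Leaving out 1 library gave 0 to 231 calls for ibuprofen, 0 to 342 for collection and 0 to 1051 for route. The high counts came without an FV library: 231 and 228, 342 and 107, 1051 and 704. The cause was not tested. Non could not be left out of the collection fit.

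The edgeR F statistic for route passed for alpha and beta by library size (25.8 and 22.9). DESeq2, whose likelihood ratio statistic is a different measure, passed alpha, beta and theta (17.5, 18.6 and 24.8). For theta the edgeR F statistic ran from 6.53 to 26.3 without single libraries. The sign of Hbq1b for ibuprofen turned with DESeq2 size factors (-0.0040) and DESeq2 (-0.0039), and that of Hba-a1 by library size (0.0012). Without single libraries the ibuprofen difference ran from -0.577 to 0.0775 for alpha, -0.587 to 0.0584 for beta, -0.535 to 0.116 for Hba-a1, -0.644 to 0.0144 for Hba-a2, -0.582 to 0.0684 for Hbb-bs, -0.596 to 0.0423 for Hbb-bt and -0.20 to 0.33 for Hbq1b, the adult signs turning without a TV library. For collection it ran from -0.0035 to 0.63 for beta, -0.0051 to 0.64 for Hbb-bs, -0.0016 to 0.63 for Hbb-bt and -0.507 to 0.0199 for Hbq1b.

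Genes at least 2-fold apart with a mean of at least 5 CPM numbered 46 for RP without ibuprofen, 34 for RP with and 51 for TV with ibuprofen against Non, and 87 for ibuprofen in RP. By library size they numbered 571 for FV with and 2932 for TV without ibuprofen against Non, and 197 and 772 for ibuprofen in RP and TV. The adult share without mitochondrial rRNA was 58.7% in Non, 54.0% and 46.8% in FV, 54.3% and 62.6% in RP, and 71.5% and 64.9% in TV. In TPM it was 82.7%, 78.9%, 73.6%, 80.6%, 84.9%, 88.5% and 85.7% in the same order.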
